A study of Mus musculus with 18 samples.

Results

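The unfolded protein response (UPR) and its endoplasmic reticulum (ER) chaperone genes were followed through total RNA and 2 poly(A) tail fractions of mouse cortex and striatum. The 37 genes came from a list that was chosen with earlier results of these data known. They were 4 sensors and transcription factors, 15 chaperones and folding enzymes, 9 genes of ER-associated degradation, 3 translocon subunits and 6 genes of the ATF4 arm. Of these, 36 had a probe set assigned to their symbol alone, and 35 passed a filter that left out the lowest 25% of genes by mean level, which kept 12822 of 17097 genes. Trib3, a pseudokinase of the ATF4 arm, had a mean of 5.45 on the log2 scale and fell below the filter at 5.52. Sec61g is not analysed here. Where a gene had several probe sets, the brightest on average stands for it, and all values are log2 values as deposited.

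The animals were mice aged 6 weeks from 3 genotypes: CPEB4 KO, CPEB4 GT/+ (CPEB4 KOGT/+ in the series text) and WT, with 2 animals each. CPEB4 binds mRNAs in the cytoplasm and regulates the length of their poly(A) tails. Cortex and striatum were dissected together, and each animal gave 3 arrays. ELUTED RNA was released from poly(U) agarose with 90% formamide and was enriched for long tails, WASH RNA came off at 25% formamide and was enriched for short tails, and INPUT was total RNA. The labels do not say which part of Cpeb4 is altered or in which cells, and give neither strain nor sex. In a dissected tissue, fewer cells of a type and less RNA per cell cannot be told apart.

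The UPR starts from 3 sensors in the ER membrane. IRE1 (Ern1) splices the mRNA of the transcription factor XBP1, PERK (Eif2ak3) phosphorylates the translation factor eIF2α and so favours translation of ATF4, and ATF6 is cleaved to a transcription factor. Their targets are chaperones that fold proteins in the ER lumen, the machinery that extracts misfolded proteins for the proteasome, and amino acid metabolism and stress genes. Cytoplasmic polyadenylation by CPEB proteins lengthens tails of stored mRNAs, and CPEB4 is known from mouse liver for a part in translation of UPR mRNAs.

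A promoter element known from ER chaperone genes is shown for the members that carry it, because the INPUT differences of these members are given together below. The ER stress response element was searched as CCAAT, 9 bases of any kind, then CCACG, on both strands of RefSeq promoters (GRCm38.p6, 250 bases before to 50 after each gene's start). It was present in 8 of the 31 members with a promoter in the table, and in 0.119% of all 32851 promoters. The stretch before the start of Hspa5, the gene of the chaperone BiP, lies at chr2:34771840-34772089 on the plus strand, and capitals mark the element, which began 65 bases before the start.
Hspa5: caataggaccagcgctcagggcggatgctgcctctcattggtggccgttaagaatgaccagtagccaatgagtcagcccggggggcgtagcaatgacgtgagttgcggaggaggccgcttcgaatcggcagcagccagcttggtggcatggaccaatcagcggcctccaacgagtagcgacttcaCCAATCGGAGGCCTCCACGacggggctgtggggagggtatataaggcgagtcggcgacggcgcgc

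The elements of the other 7 promoters are given in the reading direction of the motif, with its fixed bases in capitals. Hsp90b1 held 2 of them.
Calr: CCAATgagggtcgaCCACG
Canx: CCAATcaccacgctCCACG
Creld2: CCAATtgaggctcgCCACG
Dnajc3: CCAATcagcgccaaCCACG
Hsp90b1, nearer the start: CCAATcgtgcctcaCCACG
Hsp90b1, farther from the start: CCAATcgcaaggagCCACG
Pdia6: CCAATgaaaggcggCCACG
Syvn1: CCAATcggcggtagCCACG

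The related element II, searched as ATTGG, 1 base of any kind, then CCACG, was found in 2 members, Dnajb11 and Herpud1, and in 0.0365% of all promoters. The amino acid response element through which ATF4 acts, searched as TGATGNAA, was found in Asns, Herpud1 and Trib3, and in 3.97% of all promoters. A match describes the letters in this window and is not a binding site.
Dnajb11, element II: ATTGGcCCACG
Herpud1, element II: ATTGGgCCACG
Asns, amino acid response element: TGATGaAA

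Cpeb4 itself was lowest in CPEB4 KO in each fraction, with INPUT levels of 6.62 and 6.91 in CPEB4 KO, 7.31 and 7.00 in CPEB4 GT/+ and 8.15 and 7.62 in WT. Markers of the labelled tissue were present: 11 of 12 cortical excitatory and 9 of 12 striatal projection markers passed the filter. Within a fraction 2 arrays stood apart: CPEB4 GT/+ ELUTED of animal 2, with a mean correlation of 0.977 with the other ELUTED arrays, where the remaining 5 had 0.980 to 0.986, and CPEB4 KO INPUT of animal 1, at 0.978 with the other INPUT arrays, where the remaining 5 had 0.989 to 0.990. The gap was thus small in ELUTED and wider in INPUT. Arrays were normalized to each other, so total amounts of poly(A) RNA were not measured, and every difference is relative to the other genes.

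The question of the first comparison was how the members divide between long and short tails. ELUTED was compared with WASH within each animal, over all 6 animals. Most members lay on the short-tail side: 29 of 35 fell in ELUTED against WASH, 1 rose (Ern1) and 5 did not pass the test (limma, Benjamini-Hochberg adjusted p under 0.05 over 12822 genes). Of all genes, 48.5% were called lower and 24.9% higher. In 26 members all 6 animals were below 0, as they were in 47.8% of all genes. The median log2 difference was -0.63 over the members and -0.18 over all genes kept. Among the 8548 genes left when the lowest 50% by level were removed, 59.3% were called lower and the median was -0.33; 28 of the 33 members there fell, and theirs was -0.63.

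The sign of a small difference depended on how the arrays were scaled. When each array was centred on the median of the kept genes, 19 members fell and 5 rose, with 3346 genes lower and 6202 higher in all, against 6217 lower and 3196 higher as deposited. When arrays were aligned on the hybridisation control probe sets, 34 members fell and 1 rose, with 9230 genes lower and 202 higher. The members' median stayed below that of all genes in each case, at -0.28 against 0.17 when centred, -1.12 against -0.67 when aligned, and -0.34 against -0.06 after quantile normalization.

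**Figure D1:**
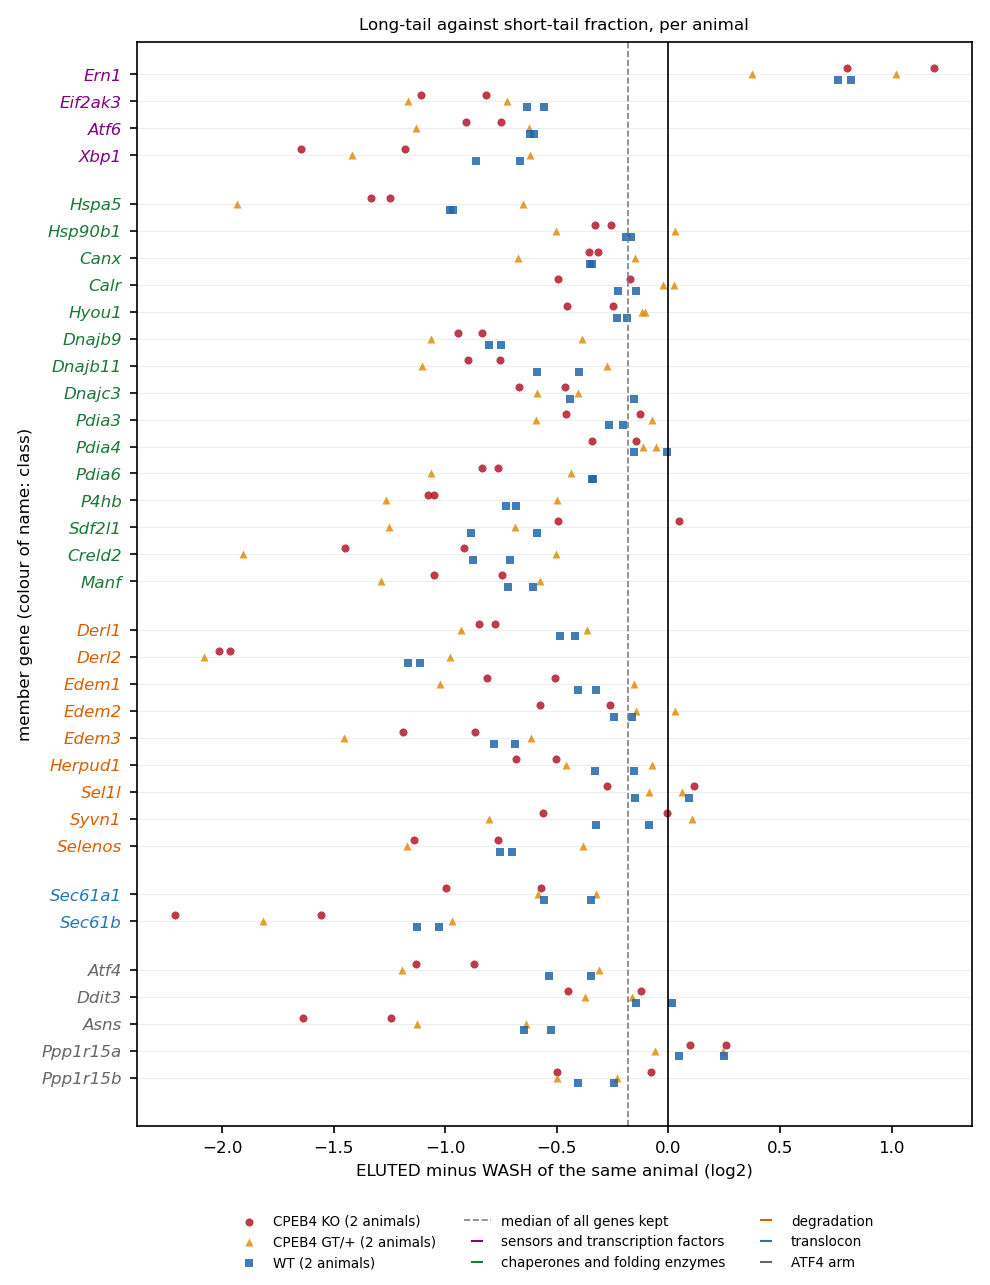
Difference between ELUTED and WASH (log2) of each of the 35 members kept, with 1 point for each of the 2 animals per genotype; the dashed line is the median of all 12822 genes kept, at -0.18. Ern1 is the member with all 6 animals above 0, Derl2, Sec61b and Hspa5 lie farthest to the left, and 26 members have all 6 animals below 0 in the deposited values.

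Of the sensors and transcription factors, 3 fell and 1 rose, with a class median of -0.80 as deposited. Xbp1 had ELUTED levels of 8.09 and 7.82 in CPEB4 KO, 8.63 and 7.99 in CPEB4 GT/+ and 8.20 and 8.49 in WT, against WASH levels of 9.27 and 9.46, 9.25 and 9.41, and 9.07 and 9.16 in the same animals. Every ELUTED level lay below every WASH level, and the difference was -1.07 (SE 0.12, adjusted p = 0.000135, limma, 6 of 6 animals lower). All 4 Xbp1 probe sets lay on the same side, from -1.55 to -0.77.

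Eif2ak3, which encodes PERK, fell by 0.83 (SE 0.09, adjusted p = 0.000113), with per-animal differences from -1.17 to -0.56. Atf6 fell by 0.77 (SE 0.09, adjusted p = 0.000146), with a range of -1.13 to -0.60, but its second probe set, also above the filter, differed by -0.02. The low difference of Atf6 thus rests on 1 probe set.

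Ern1, the gene of the XBP1-splicing nuclease IRE1, was the exception of the class. Its ELUTED levels were 7.84 and 7.90 in CPEB4 KO, 7.32 and 7.65 in CPEB4 GT/+ and 7.72 and 7.65 in WT, against WASH levels of 7.05 and 6.71, 6.95 and 6.63, and 6.95 and 6.84. The difference was 0.83 (SE 0.10, adjusted p = 0.00021, limma, 6 of 6 animals higher), and no ELUTED level overlapped a WASH level. Of its other 2 probe sets above the filter, 1 differed by 0.39 and 1, the brighter, by -0.29. Ern1 and the mRNA its product splices, Xbp1, thus lay on opposite sides at 2 of the 3 Ern1 probe sets above the filter.

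Of the chaperones and folding enzymes, 13 of 15 fell, 0 rose, and the class median was -0.63. Hspa5 had ELUTED levels of 8.39 and 8.50 in CPEB4 KO, 8.93 and 7.81 in CPEB4 GT/+ and 8.60 and 8.54 in WT, against WASH levels of 9.64 and 9.84, 9.58 and 9.75, and 9.57 and 9.52 in the same animals. All ELUTED levels were lower, the lowest being that of the CPEB4 GT/+ array that stood apart. The difference was -1.19 (SE 0.15, adjusted p = 0.000211, limma), the same as at its second probe set.

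Creld2, a secreted ER stress protein with disulfide isomerase activity, fell by 1.06 (SE 0.17, adjusted p = 0.000672), with a range of -1.91 to -0.50 over the animals. P4hb, a protein disulfide isomerase, fell by 0.88, Manf, a secreted neurotrophic factor of the ER lumen, by 0.83, and Dnajb9, a BiP co-chaperone, by 0.80. Of the lectin chaperones, Canx fell by 0.37 (SE 0.09, adjusted p = 0.00512), and Calr had a difference of -0.17 (SE 0.08, adjusted p = 0.0683) that turned to 0.18 with centred arrays. The second Calr probe set gave -0.58. Pdia4 did not pass the test either, at -0.14 (SE 0.07, adjusted p = 0.119), and turned to 0.22 with centred arrays.

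Of the degradation genes, 7 of 9 fell and 0 rose, with a median of -0.54. Derl2, a derlin of the retrotranslocation complex, had ELUTED levels of 6.68 and 6.72 in CPEB4 KO, 7.52 and 6.33 in CPEB4 GT/+ and 7.21 and 7.32 in WT. Its WASH levels were 8.65 and 8.74 in CPEB4 KO, 8.50 and 8.41 in CPEB4 GT/+ and 8.38 and 8.44 in WT. The groups did not overlap, and the difference of -1.55 (SE 0.13, adjusted p = 6.94e-05, limma) was the lowest of the 35 members. Its second probe set gave -1.08.

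Edem3, a mannosidase that marks glycoproteins for degradation, fell by 0.93 (SE 0.11, adjusted p = 0.000198), while Edem2 fell by 0.23 and turned to 0.13 with centred arrays. The ubiquitin ligase pair of the pathway did not pass the test: Sel1l, the adaptor, differed by -0.04 (SE 0.08, adjusted p = 0.674), with 3 of 6 animals above 0, and Syvn1, the ligase HRD1, by -0.28 (SE 0.13, adjusted p = 0.0809). Herpud1, which recruits the ligase complex, fell by 0.37.

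Both translocon subunits measured fell. Sec61b, the small β subunit, fell by 1.45 (SE 0.13, adjusted p = 7.51e-05), with a range of -2.21 to -0.97, and Sec61a1, the pore, fell by 0.56 (SE 0.09, adjusted p = 0.000604).

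The ATF4 arm was split. Of its 5 kept genes 4 fell, with a class median of -0.33 that turned to 0.03 with centred arrays. Asns, asparagine synthetase and a target of ATF4, had ELUTED levels of 8.21 and 8.21 in CPEB4 KO, 9.08 and 8.49 in CPEB4 GT/+ and 8.995 and 9.08 in WT, against WASH levels of 9.45 and 9.84, 9.72 and 9.62, and 9.64 and 9.61. The difference was -0.97 (SE 0.09, adjusted p = 8.98e-05, limma), with 6 of 6 animals lower. Atf4 fell by 0.73 (SE 0.12, adjusted p = 0.000712), although a second, dimmer probe set gave 0.18.

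The proapoptotic factor CHOP and the feedback phosphatase subunits had smaller differences. Ddit3, which encodes CHOP, fell by 0.21 (SE 0.08, adjusted p = 0.0442) and turned to 0.15 with centred arrays. Ppp1r15a, the inducible subunit GADD34, differed by 0.14 (SE 0.08, adjusted p = 0.138) with 5 of 6 animals above 0, and the constitutive subunit Ppp1r15b fell by 0.33. Trib3, below the filter, had per-animal differences of 0.16 to 0.60. No test of 1 class against another was run. Under the 3 other scalings, the medians of the other 4 classes stayed below 0.

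Other genes of the pathway were taken from a list of 99, of which 89 were kept: 69 fell, 10 rose and 10 did not pass, with a median of -0.43. Targeting and translocation genes were all lower, 25 of 25, among them Ssr4 at -2.02, Sec11c, a signal peptidase subunit, at -1.82 and Ostc, an oligosaccharyltransferase subunit, at -1.36. In folding and redox, 17 of 22 fell, with the ER peroxiredoxin Prdx4 at -2.08, Dnajc10 at -0.98 and the prolyl isomerase Ppib at -0.93, and 3 rose, Uggt2 at 0.73, Kdelr3 at 0.63 and Qsox1 at 0.24. In degradation 11 of 16 fell, led by Ngly1 at -1.27, Man1b1 at -0.86 and Ufd1 at -0.81, and Derl3 alone rose, at 0.41. In signalling and transcription 16 of 26 fell and 6 rose. Mbtps2, the site-2 protease that cleaves ATF6, was at -1.06, and Mbtps1, the site-1 protease, at 0.52.

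Of the RNA quality controls, Actb differed between the fractions and Gapdh overlapped. The 3′ minus 5′ difference of the Actb control probe sets ranged from -0.47 to -0.31 in ELUTED RNA and from -0.21 to -0.06 in WASH RNA. That of the Gapdh control probe sets ranged from -0.05 to 0.06 in ELUTED RNA and from -0.13 to 0.02 in WASH RNA. The standard deviation over all probe sets lay between 1.78 and 1.90 in ELUTED RNA and between 1.96 and 2.01 in WASH RNA. Their part in the result was not tested. Without the CPEB4 GT/+ animal whose ELUTED array stood apart, 27 members fell and 1 rose, with 6137 genes lower and 3108 higher in all, and the members' median was -0.53.

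Each fraction was then set against INPUT. In ELUTED over INPUT, 20 members fell, 1 rose and 14 did not pass, where 29.5% of all genes were called lower and 14.6% higher. The median was -0.30 over the members and -0.04 over all genes. Sec61b fell by 1.08 (SE 0.10, adjusted p = 0.000433), Derl2 by 1.07, Creld2 by 0.77 and Manf by 0.72, and Ern1 rose by 0.45 (SE 0.07, adjusted p = 0.00195). With centred arrays 13 fell and 3 rose, with 2580 genes lower and 4658 higher in all. Without WT animal 1, 12 members fell and 1 rose, and the share of all genes called in either direction was 25.3%, against 44.1% with that animal.

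In WASH over INPUT, 21 members rose, 3 fell and 11 did not pass, where 45.1% of all genes were called higher and 19.5% lower. The median was 0.19 over the members and 0.11 over all genes, and it turned to -0.02 with centred arrays, with 10 members rising and 6 falling (2586 and 5455 of all genes), and was 0.10 after quantile normalization, with 16 rising and 4 falling (4595 and 2584 of all genes). Edem3 rose by 0.74 (SE 0.09, adjusted p = 0.000191), Xbp1 by 0.66, Hspa5 by 0.61 and Dnajb9 by 0.59. Ern1 fell by 0.38, Hsp90b1, the ER member of the HSP90 family, by 0.26, and Sel1l by 0.24. The calls for Hsp90b1 and Sel1l were lost when arrays were aligned on the hybridisation controls, with differences of 0.012 and 0.029.

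**Figure D2:**
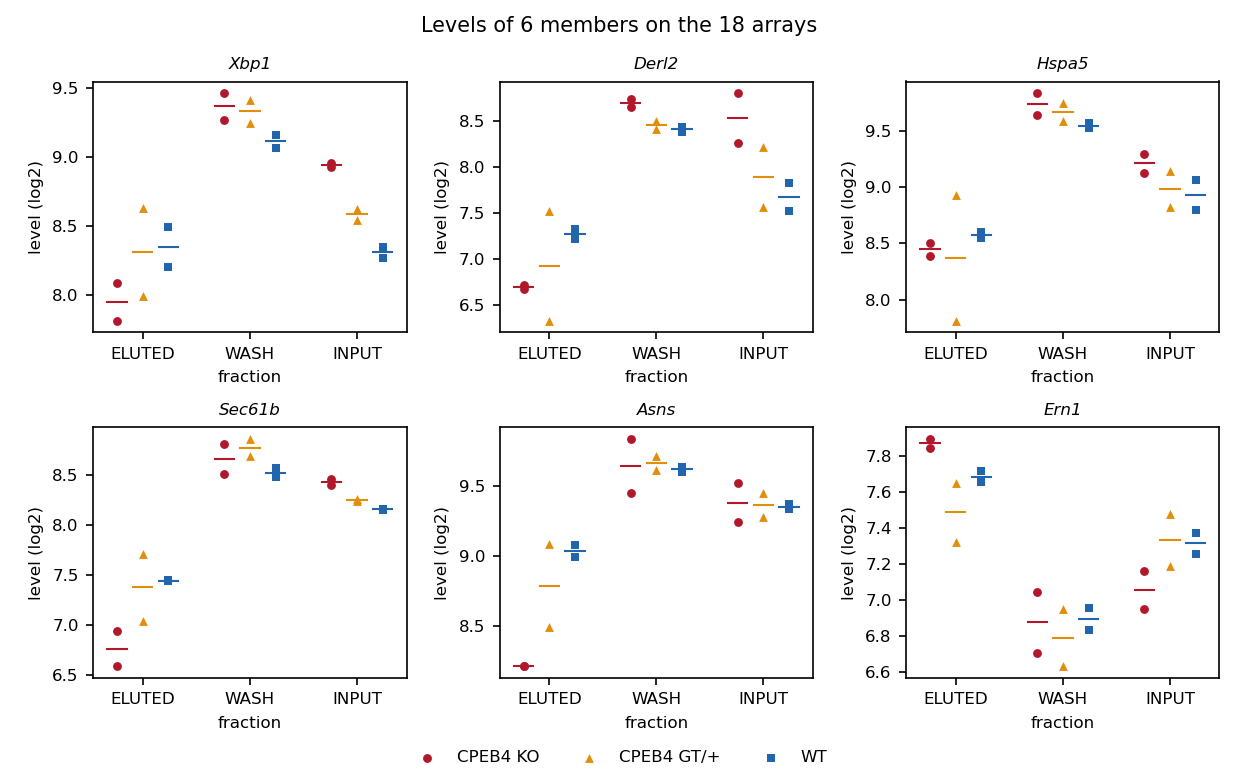
Levels (log2) of 6 members on the 18 arrays, by fraction (ELUTED, WASH, INPUT) and genotype; points are animals and short lines the mean of 2. Xbp1, Derl2, Hspa5, Sec61b and Asns are lower in ELUTED than in WASH in each animal, Ern1 is higher in ELUTED, and Xbp1 in INPUT steps down through CPEB4 KO (8.93 and 8.95), CPEB4 GT/+ (8.54 and 8.63) and WT (8.27 and 8.35).

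The genotype comparisons asked whether members differ in CPEB4 KO animals. In INPUT no member and no gene passed the test for CPEB4 KO against WT: 0 of 12822 by limma (0% called). At an unadjusted p under 0.05, 14 members were higher in CPEB4 KO and 0 lower, against 7.28% higher and 3.67% lower over all genes. The differences leaned one way. In 31 of 35 members the CPEB4 KO mean was above the WT mean, where 57.2% of all genes were, and the median was 0.22 against 0.03 over all genes. In 22 members both CPEB4 KO levels lay above both WT levels (24.7% of all genes) and in 3 below them (18.4% of all genes). The members' median was 0.13 with centred and 0.35 with aligned arrays. The shares of all genes were not matched for level. In WT INPUT the members' medians were 8.98 and 8.91, against 7.72 and 7.70 over all genes. The standard deviation over all probe sets was 1.92 and 1.95 in CPEB4 KO INPUT, against 1.90 and 1.89 in WT INPUT. The part of level and spread in the lean was not tested. With 2 animals against 2, an exact permutation test cannot go below p = 0.333.

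Xbp1 had the smallest p of the members. Its INPUT levels were 8.93 and 8.95 in CPEB4 KO, against 8.27 and 8.35 in WT, a difference of 0.63 (SE 0.09, unadjusted p = 0.000171, adjusted p = 0.253, limma). The levels did not overlap, and the animals of a genotype lay close together. Its 4 probe sets gave 0.39 to 0.63. In CPEB4 GT/+ the levels were 8.54 and 8.63, between the other genotypes without overlap with either. XBP1 is the transcription factor that drives much of the chaperone and degradation programme.

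Of the chaperones and folding enzymes, 15 of 15 means were higher in CPEB4 KO and 13 of 15 without overlap, with a median of 0.29. With centred arrays or after quantile normalization 14 of 15 were higher. Manf had levels of 10.39 and 10.49 in CPEB4 KO, against 10.05 and 10.05 in WT, a difference of 0.39 (SE 0.09, adjusted p = 0.359, limma). Calr had 11.04 and 10.85 in CPEB4 KO, against 10.51 and 10.49 in WT, a difference of 0.45 (SE 0.12, adjusted p = 0.388). Sdf2l1, a partner of the BiP co-chaperones, had 9.18 and 8.88 in CPEB4 KO, against 8.64 and 8.53 in WT, a difference of 0.44 (SE 0.12, adjusted p = 0.388). In Manf, Calr and Sdf2l1 both CPEB4 KO levels lay above both WT levels.

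P4hb showed how much 1 array could carry. Its levels were 10.48 and 9.60 in CPEB4 KO, against 9.59 and 9.41 in WT, so that most of its difference of 0.54 (SE 0.25, adjusted p = 0.476, limma) came from the INPUT array that stood apart. Without that animal, 29 of 35 members were still higher in CPEB4 KO than the WT mean, including 15 of 15 chaperones, with a median of 0.20. Over all genes, 7912 of 12822 were higher there, with a median of 0.06. When the other CPEB4 KO animal was left out instead, 4 members were called higher (Herpud1, P4hb, Sec61a1 and Xbp1) among 269 genes.

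The degradation genes were higher in 9 of 9, with a median of 0.23 and 6 of 9 without overlap; 8 of 9 were higher with centred arrays. Derl2 had levels of 8.80 and 8.26 in CPEB4 KO, against 7.83 and 7.52 in WT, a difference of 0.86 (SE 0.25, adjusted p = 0.388, limma), the largest of the members in INPUT. The second Derl2 probe set gave 0.48. Herpud1 had 9.91 and 9.34 in CPEB4 KO, against 9.16 and 9.04 in WT, a difference of 0.53 (SE 0.17, adjusted p = 0.404). The second Herpud1 probe set gave 0.17. In both genes the animal with the array that stood apart was the higher one.

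The 2 translocon subunits had differences of 0.46 (Sec61a1) and 0.27 (Sec61b), without overlap. The other Sec61a1 probe sets gave 0.05, 0.41 and 0.79, the brightest of them 0.05. Of the sensors, Eif2ak3 differed by 0.15 and Atf6 by 0.14, both above 0 with overlap, and Ern1 lay on the other side at -0.26 (SE 0.13, adjusted p = 0.501, limma), with levels of 7.16 and 6.95 in CPEB4 KO, against 7.37 and 7.26 in WT. Its other 2 probe sets above the filter gave 0.24 and 0.07.

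In the ATF4 arm 2 of 5 means were higher in CPEB4 KO, with a median of -0.03, which became 0.11 with aligned arrays (4 of 5 higher) and -0.11 with centred arrays (0 of 5 higher). Atf4 had levels of 8.98 and 9.05 in CPEB4 KO, against 9.12 and 9.15 in WT (-0.13, SE 0.09, adjusted p = 0.618, limma). Ppp1r15a had 6.59 and 6.44 in CPEB4 KO, against 6.67 and 6.83 in WT (-0.24, SE 0.12, adjusted p = 0.503). Ddit3 and Asns differed by 0.04 and 0.03 with overlap. The difference between the classes was not tested.

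**Figure D3:**
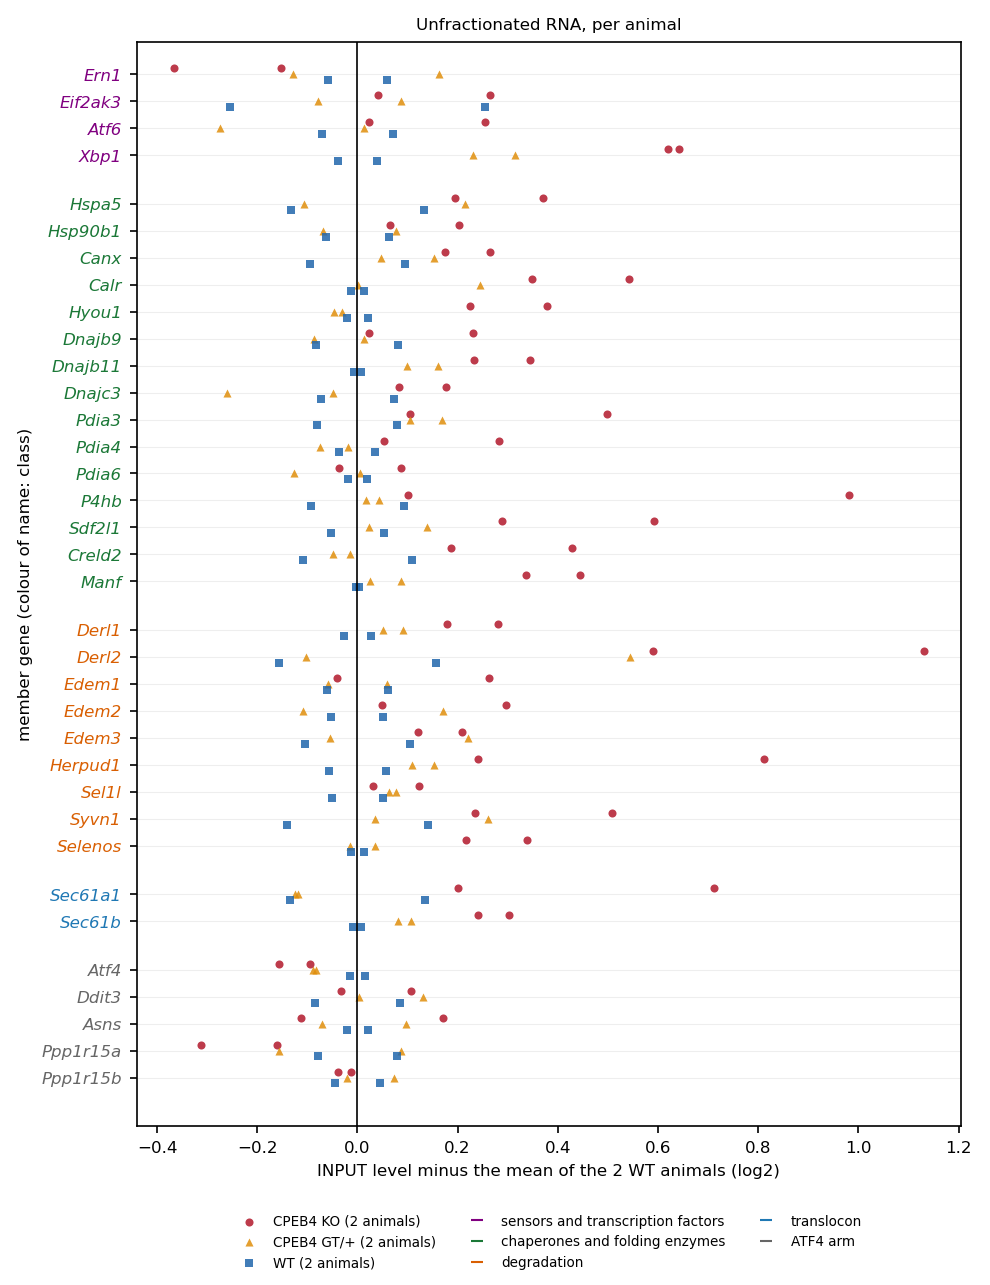
INPUT level of each animal minus the mean of the 2 WT animals (log2), for the 35 members kept, ordered by class. The CPEB4 KO points lie to the right of both WT points in 22 members, 13 of them chaperones and folding enzymes. In the CPEB4 KO pairs of P4hb, Derl2 and Herpud1 the higher point is the INPUT array of CPEB4 KO animal 1. The CPEB4 GT/+ pair of Derl2 is also wide, with levels of 8.22 and 7.57.

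The members with an ER stress response element of either form, 10 genes, had a median INPUT difference of 0.29 between CPEB4 KO and WT, with 10 of 10 above 0. The 19 kept members whose promoter in the table held neither had a median of 0.16, with 16 of 19 above 0. The 2 sets were not tested against each other, and their ranges overlapped, at 0.03 to 0.53 with an element and -0.26 to 0.86 without. Except for Syvn1 and Herpud1, the 10 genes with an element were chaperones and folding enzymes, a class whose median was also 0.29. Element and class were thus not separated here.

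Of the other pathway genes, 65 of 89 were higher in CPEB4 KO INPUT, with a median of 0.09 and 0 called. Prdx4 differed by 0.66 (SE 0.11, adjusted p = 0.253, limma) and Uggt2 by -0.54 (SE 0.10, adjusted p = 0.278). Markers of other cell types also differed in the same arrays. Of 12 endothelial and mural markers, 10 were higher in CPEB4 KO, with a median of 0.25, and their summed level was 12.11 to 12.43 in CPEB4 KO, against 11.85 to 11.89 in WT. The 8 kept oligodendrocyte precursor markers were higher in 8 of 8, with a median of 0.20, and summed to 11.5 to 11.6 in CPEB4 KO, against 11.4 in both WT animals. Microglia markers were higher in 9 of 11, summing to 12.40 to 12.43 in CPEB4 KO, against 12.14 to 12.30 in WT. Each of these summed levels separated CPEB4 KO from WT. So did those of 3 further lists. The 8 kept ependymal, choroid plexus and meningeal markers summed to 12.22 to 12.54 in CPEB4 KO, against 11.21 to 12.13 in WT, with 6 of 8 higher. GABA interneuron markers summed to 13.43 to 13.52 in CPEB4 KO, against 13.36 to 13.40 in WT, with 9 of 10 higher. The 4 kept pituitary markers summed to 8.40 to 8.42 in CPEB4 KO, against 8.72 to 9.005 in WT, with 4 of 4 lower. Astrocyte sums were barely apart, at 14.169 to 14.192 in CPEB4 KO, against 14.120 to 14.165 in WT, and the other 4 lists overlapped. The Actb 3′ minus 5′ difference was -0.42 and -0.41 in CPEB4 KO INPUT, against -0.46 and -0.47 in WT INPUT. That of Gapdh lay the other way, at -0.086 and -0.099 in CPEB4 KO INPUT, against -0.075 and -0.049 in WT INPUT. The part of these in the members' differences was not tested.

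CPEB4 GT/+ INPUT was close to WT INPUT, with 0 members and 0% of all genes called by limma, and 1 member, Xbp1, higher at an unadjusted p under 0.05 (1.73% of all genes higher, 1.68% lower). The median over the members was 0.03, against 0.00 over all genes, and 8 members lay above WT without overlap (16.9% of all genes) and 2 below (15% of all genes). Xbp1 had the largest difference, 0.27 (SE 0.09, unadjusted p = 0.0194, adjusted p = 1, limma).

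CPEB4 KO INPUT against CPEB4 GT/+ INPUT gave 0 calls as well (0% of all genes), with 10 members higher at an unadjusted p under 0.05 and 0 lower (5.97% of all genes higher, 2.17% lower). The means were higher in CPEB4 KO in 30 of 35 members, against 56.2% of all genes, with a median of 0.16. Xbp1 differed by 0.36 (SE 0.09, adjusted p = 0.469), Sec61a1 by 0.58 (SE 0.17, adjusted p = 0.495) and Hyou1, an ER member of the HSP70 family, by 0.34 (SE 0.10, adjusted p = 0.487). The means of 22 of 35 members (62.9%) stepped down through CPEB4 KO, CPEB4 GT/+ and WT, against 25.7% of all genes. Both comparisons share the CPEB4 KO arrays.

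In WASH the members' means also lay mostly above WT. No member was called for CPEB4 KO against WT, where 6 genes were in all (0.0468%), Cpeb4 among them at -1.15. At an unadjusted p under 0.05, 5 members were higher and 0 lower (3.95% of all genes higher, 1.88% lower). The members' means were higher in CPEB4 KO in 31 of 35, against 59.7% of all genes, with a median of 0.15, and 22 lay above WT without overlap (22.8% of all genes). Summed levels of 5 marker lists lay above WT there without overlap, among them microglia, at 12.70 to 12.72 in CPEB4 KO, against 12.59 to 12.67 in WT, and pituitary markers lay below. The standard deviation over all probe sets was 1.98 and 2.01 in CPEB4 KO WASH, against 1.97 and 1.96 in WT WASH. The Actb 3′ minus 5′ difference was -0.17 and -0.06 in CPEB4 KO WASH, against -0.21 and -0.18 in WT WASH. That of Gapdh overlapped, at 0.020 and -0.067 in CPEB4 KO, against -0.020 and -0.017 in WT. The part of markers, spread and controls was not tested. Chaperones were higher in 15 of 15, under each of the scalings tried. Derl2 had 8.65 and 8.74 in CPEB4 KO, against 8.38 and 8.44 in WT, and Xbp1 9.27 and 9.46 in CPEB4 KO, against 9.07 and 9.16 in WT. CPEB4 GT/+ against WT gave 0 calls (0% of all genes) and a median of 0.05, which was -0.01 with centred arrays; Eif2ak3 differed by 0.39 there.

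In ELUTED fewer of the members' means lay above WT. For CPEB4 KO against WT, 0 members and 1 gene in all (0.0078%) were called by limma, and at an unadjusted p under 0.05, 1 member was higher and 3 lower (1.42% of all genes higher, 4.52% lower). The means were higher in CPEB4 KO in 12 of 35, against 48.2% of all genes. The median was -0.06, and 0.01 with centred arrays. In 13 members both CPEB4 KO levels lay below both WT levels (26.5% of all genes) and in 3 above (22.5% of all genes). Marker lists differed here too. Microglia markers were lower in 10 of 11, summing to 11.57 to 11.86 in CPEB4 KO, against 11.92 to 12.17 in WT. Oligodendrocyte markers were lower in 10 of 10, summing to 13.16 to 13.34 in CPEB4 KO, against 13.41 in both WT animals. The 4 kept blood markers summed to 11.63 to 12.16 in CPEB4 KO, against 12.43 to 12.73 in WT, and pituitary markers were also lower without overlap, while cortical excitatory and striatal projection markers were higher. The standard deviation over all probe sets was 1.828 and 1.803 in CPEB4 KO ELUTED, against 1.832 and 1.843 in WT ELUTED. The Actb 3′ minus 5′ difference was -0.375 and -0.346 in CPEB4 KO ELUTED, against -0.405 and -0.404 in WT ELUTED. That of Gapdh was 0.019 and -0.015 in CPEB4 KO, against -0.039 and -0.033 in WT. The part of markers, spread and controls in the members' differences was not tested.

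Asns had the smallest p of the members in ELUTED. Its levels were 8.21 and 8.21 in CPEB4 KO, against 8.995 and 9.08 in WT, a difference of -0.83 (SE 0.20, unadjusted p = 0.00376, adjusted p = 0.837, limma). It was the 1 member called, among 88 genes, when only these 2 genotypes entered the fit. Sec61b had 6.94 and 6.59 in CPEB4 KO, against 7.45 and 7.43 in WT, a difference of -0.67 (SE 0.24). Atf4 had 8.14 and 8.14 in CPEB4 KO, against 8.83 and 8.74 in WT, a difference of -0.65 (SE 0.26). In both Asns and Atf4, its activator, the CPEB4 KO levels lay below the WT levels without overlap; the second Atf4 probe set gave 0.02.

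Xbp1 had ELUTED levels of 8.09 and 7.82 in CPEB4 KO, against 8.20 and 8.49 in WT, a difference of -0.40 (SE 0.23, adjusted p = 0.905). Sdf2l1 was the 1 member higher at an unadjusted p under 0.05, with 9.24 and 8.75 in CPEB4 KO, against 8.43 and 8.16 in WT, a difference of 0.70 (SE 0.22, unadjusted p = 0.0139, adjusted p = 0.837). CPEB4 GT/+ against WT in ELUTED gave 0 calls (0% of all genes) and a median of -0.07, which was 0.06 with aligned arrays. Its 2 animals disagreed there, with members' medians of 8.92 and 8.30. Without CPEB4 GT/+ animal 1, 4 members were called lower (Atf4, Creld2, Derl2 and Hspa5) among 499 genes called in all (3.89%), with the array that stood apart as the 1 CPEB4 GT/+ array left.

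**Figure D4:**
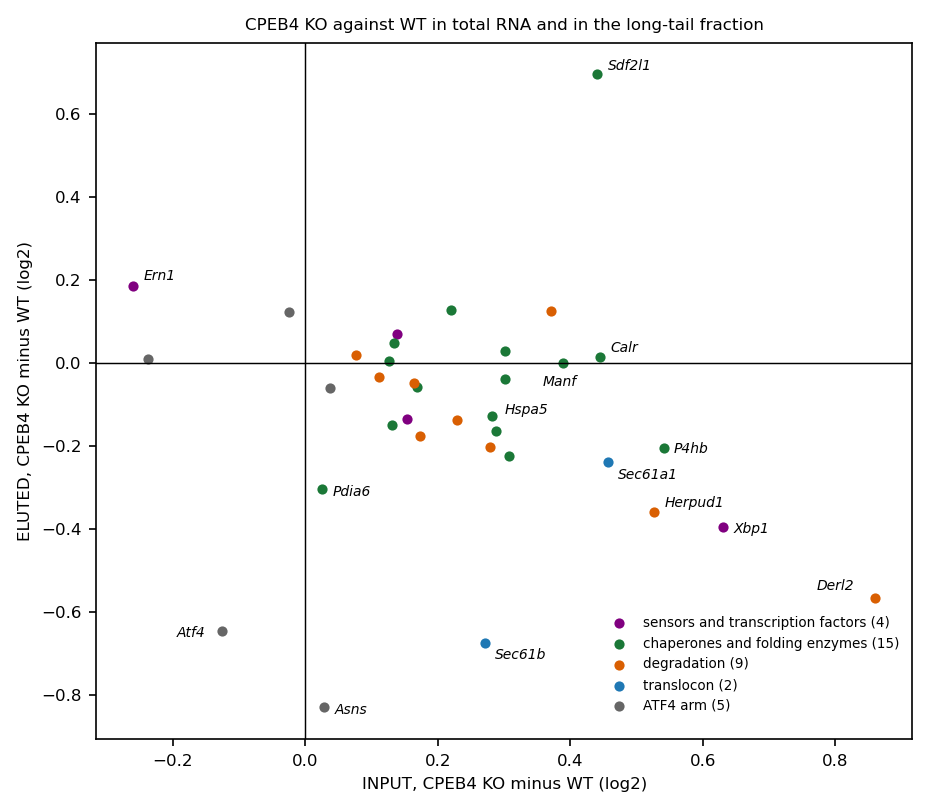
CPEB4 KO minus WT in INPUT (horizontal, log2) and in ELUTED (vertical, log2) for the 35 members kept, coloured by class. Xbp1, Derl2, Herpud1 and P4hb lie in the lower right part, Asns and Atf4 are low in ELUTED with little difference in INPUT, and Sdf2l1 is high in both.

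The INPUT and ELUTED contrasts pointed opposite ways in part of the list. In 10 of 35 members CPEB4 KO lay above WT in INPUT and below WT in ELUTED, without overlap in either, a pattern that 8.6% of all genes showed. They were Xbp1, Hspa5, Dnajb11, P4hb, Derl1, Derl2, Herpud1, Selenos, Sec61a1 and Sec61b. P4hb was barely apart in INPUT, at 9.602 in CPEB4 KO animal 2 against 9.594 in WT animal 1. The other Sec61a1 probe sets gave 0.05 to 0.79 in INPUT and -0.22 to 0.06 in ELUTED. Ern1 was the 1 member with the reverse pattern (5.99% of all genes). Its other 2 probe sets above the filter gave 0.24 and 0.07 in INPUT and 0.04 and -0.04 in ELUTED. The reverse pattern of Ern1 thus rests on 1 probe set. The difference between the contrasts, tested as ELUTED over INPUT in CPEB4 KO against WT, was -1.43 for Derl2 (SE 0.27, adjusted p = 0.319, limma) and -1.03 for Xbp1 (SE 0.25, adjusted p = 0.326). The second Derl2 probe set, also above the filter, gave 0.48 in INPUT but only -0.009 in ELUTED, so the ELUTED side of Derl2 rests on 1 probe set. No member and 0% of all genes were called, while 8 members were lower and 1 higher at an unadjusted p under 0.05, against 8.99% lower and 2.63% higher over all genes.

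The last comparison asked whether the balance between long and short tails itself differed by genotype. The ELUTED over WASH difference was lower in CPEB4 KO than in WT in 30 of 35 members, with a median of -0.23, against -0.04 over all genes, where 44% were above 0. No member and no gene was called (0% of all genes, limma). At an unadjusted p under 0.05, 3 members were lower and 0 higher, where 4.84% and 1.33% of all genes were. In 24 members both CPEB4 KO animals lay below both WT animals (31.2% of all genes), and in 1 above, Sdf2l1 (20.6% of all genes). The members' median was -0.11 with centred and -0.40 with aligned arrays, and -0.15 without CPEB4 KO animal 2.

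Asns led this comparison, with ELUTED over WASH differences of -1.24 and -1.64 in CPEB4 KO, against -0.65 and -0.52 in WT, a gap of -0.85 (SE 0.23, unadjusted p = 0.00568, adjusted p = 0.756, limma). Derl2 had -1.97 and -2.01 in CPEB4 KO, against -1.17 and -1.11 in WT, a gap of -0.85 (SE 0.32), and its second probe set gave -0.19. Sec61b had -1.56 and -2.21 in CPEB4 KO, against -1.03 and -1.13 in WT (-0.81, SE 0.31). Xbp1 had -1.18 and -1.65 in CPEB4 KO, against -0.86 and -0.67 in WT (-0.65, SE 0.29), and its 4 probe sets gave -0.69 to -0.49. For these 4 genes both CPEB4 KO animals lay below both WT animals. The CPEB4 GT/+ animals lay far apart, at -0.98 and -2.08 for Derl2 and -0.97 and -1.82 for Sec61b. They had -0.62 and -1.42 for Xbp1 and -0.64 and -1.13 for Asns. In Derl2, Sec61b and Xbp1 that spread was wider than the gap between CPEB4 KO and WT.

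By class, the gap was below 0 in 9 of 9 degradation genes (median -0.29), 13 of 15 chaperones (median -0.17), 2 of 2 translocon subunits, 3 of 4 sensors and transcription factors and 3 of 5 genes of the ATF4 arm. With centred arrays 7 of 9 and 10 of 15 of the first 2 classes were below 0. Pdia6, a disulfide isomerase, had -0.84 and -0.76 in CPEB4 KO, against -0.34 and -0.34 in WT (-0.46, SE 0.23), though a dimmer second probe set gave 0.32. Of the other pathway genes 72 of 89 were below 0, with a median of -0.17, and so were 10 of 11 microglia markers, with a median of -0.43, 10 of 10 oligodendrocyte markers, with a median of -0.17, and 11 of 12 endothelial and mural markers, with a median of -0.15. Their part in the members' gap, and that of the spread and control probe sets given above for each fraction, was not tested.

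CPEB4 GT/+ against WT gave 0 calls in the same balance (0% of all genes) and 30 of 35 members below 0, where 43.9% of all genes were above 0, with a median of -0.20. The lean rested on 1 animal: the members' ELUTED over WASH median was -0.33 in CPEB4 GT/+ animal 1 and -1.02 in animal 2, whose ELUTED array stood apart, against -0.35 and -0.42 in WT, and without animal 2 the median gap was 0.12. The comparison with CPEB4 KO shares the WT animals.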

How the data were processed

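RNA of cortex and striatum was measured on 18 arrays from 6 animals. The deposited values are log2 levels per probe set; the submitters' processing notes name RMA as the method the authors used. The series text names a PrimeView array, while the probe set names carry the PM mark. 5 ng of RNA was amplified for each array. Depth does not apply to arrays, and their number limits the precision.

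Of 45141 probe sets, 28898 had 1 gene symbol, 551 several and 15692 none or a control role. A gene was represented by the probe set whose mean level over all 18 arrays was highest, and the lowest 25% of genes were left out. Differences between fractions were taken within animals. The fits used limma 3.58.1 in R 4.3.3 (lmFit, eBayes) over 12822 genes with Benjamini-Hochberg adjustment, and the 6 animals shared 1 estimate of spread with 3 residual degrees of freedom. Calls are at an adjusted p under 0.05. The labels do not say that animals of a genotype came from separate litters. The fit was tested on simulated data with 200 changed genes.

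The members, classes, other pathway genes and marker lists were chosen with earlier results of these data known. Genes are named as follows: any member may be named, with levels on each array for the highest and lowest of a class, the sensors, Xbp1, Atf4, Ddit3 and those with the smallest p in a genotype comparison, and up to 3 called genes each way of each other list. The Prdx4 and Uggt2 differences in INPUT were chosen after their values were seen. Likeness between genes over the 18 arrays is not given, because the arrays fall into 3 fractions. The comparison of ELUTED over INPUT between CPEB4 KO and WT, and the counts without arrays that stood apart, were chosen after seeing the data. Alternatives were the filter, 3 scalings, the mean of probe sets, eBayes with trend, left-out animals, the replicate block and fits of 2 genotypes.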

Additional observations from a re-analysis of the deposited data

Results flagged for a closer look

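In 11 members the CPEB4 KO against WT contrast pointed one way in ELUTED in both animals and the opposite way in INPUT in both animals. The difference between the contrasts (ELUTED less INPUT, log2) was tested with limma after the pattern had been seen, and none passed. It was -1.43 for Derl2 (adjusted p = 0.319), -1.03 for Xbp1 (adjusted p = 0.326), -0.95 for Sec61b (adjusted p = 0.326), -0.89 for Herpud1 (adjusted p = 0.334) and -0.70 for Sec61a1 (adjusted p = 0.326). The second Derl2 probe set gave 0.48 in INPUT and -0.009 in ELUTED. The other Sec61a1 probe sets gave 0.05 to 0.79 in INPUT and -0.22 to 0.06 in ELUTED. P4hb had -0.75 (adjusted p = 0.467), Selenos -0.48 (adjusted p = 0.411), Dnajb11 -0.45 (adjusted p = 0.515), Hspa5 -0.41 (adjusted p = 0.690) and Derl1 -0.37 (adjusted p = 0.477). Ern1 was the 1 member the other way, at 0.44 (adjusted p = 0.393). Its other 2 probe sets above the filter gave 0.24 and 0.07 in INPUT and 0.04 and -0.04 in ELUTED, without the reverse pattern. The INPUT array of CPEB4 KO animal 1, which stood apart, enters each of these differences. Groups of 2 animals are too small for a search for outlying samples.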

How the results depend on the processing

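Of 1294 values of named genes under the alternatives, 1194 kept direction and side of the threshold, 36 lost and 28 gained a call, and 36 turned sign. Leaving out 1 animal gave 24 to 32 called members in ELUTED over WASH, 13 to 27 in ELUTED over INPUT (13 without WT animal 1), 20 to 24 in WASH over INPUT, 0 to 4 in INPUT for CPEB4 KO against WT, 0 to 3 for CPEB4 KO against CPEB4 GT/+, 0 to 1 in ELUTED for CPEB4 KO against WT and 0 to 4 for CPEB4 GT/+ against WT. A lone animal was assumed to vary like the others. With arrays aligned on the hybridisation controls, 3 members were called in INPUT for CPEB4 KO against WT and 2 for CPEB4 KO against CPEB4 GT/+. With only the 2 genotypes fitted, 1 was called in ELUTED for CPEB4 KO against WT. Replicate numbers 1 and 2 recur in each genotype, and the labels tie them to no shared litter, batch or day, so they were not taken as pairs. Deviations of same-numbered animals correlated from -0.08 to -0.01 in INPUT, -0.21 to 0.19 in WASH, -0.17 to 0.22 in ELUTED and -0.33 to 0.51 in ELUTED over WASH, the highest between CPEB4 KO and CPEB4 GT/+. The replicate block gave 31 called members in ELUTED over WASH, 20 in ELUTED over INPUT, 23 in WASH over INPUT and 0 in the genotype comparisons. Apart from the shares given earlier, the counts of called members in this paragraph stand without the share of all genes. They therefore do not set the members apart from other genes.

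Small differences turned sign with the scaling, and the cause was not tested. In ELUTED over WASH, centred arrays gave Calr 0.18, Pdia4 0.22, Edem2 0.13, Sel1l 0.32 and Ddit3 0.15. Quantile normalization gave Calr 0.036, Pdia4 0.18, Edem2 0.050, Sel1l 0.15 and Ddit3 0.10. Aligned arrays gave Ppp1r15a -0.35, and Sel1l was -0.11 to 0.024 with 1 animal left out, above 0 without WT animal 2 or CPEB4 KO animal 1. In ELUTED over INPUT, centred arrays gave Pdia3 0.050, Edem2 0.012 and Ddit3 0.064, quantile normalization Ddit3 0.077, aligned arrays Pdia4 -0.20, Syvn1 -0.088 and Ppp1r15a -0.071, and Pdia4 was -0.0077 to 0.055 with 1 animal left out, below 0 without CPEB4 GT/+ animal 2. In WASH over INPUT, centred arrays gave Herpud1 -0.18, Ppp1r15a -0.20, Ddit3 -0.085 and Ppp1r15b -0.077, quantile normalization Herpud1 -0.11 and Ddit3 -0.025, and aligned arrays Hsp90b1 0.012, Dnajc3 0.22 and Sel1l 0.029. The mean of all probe sets gave Dnajc3 0.33 and Ppp1r15b -0.0017. With 1 animal left out, Ppp1r15a was -0.029 to 0.048 and Herpud1 -0.083 to 0.15.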
